A study of Homo sapiens with 6 samples.

Results

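The mitochondrial ribosomal protein genes were described in cardiomyocytes exposed to alcohol, alone or with losartan. They were taken as every gene of the series table whose symbol is MRPL or MRPS followed by a number and, in some cases, a letter from A to C, which gave 77 of the 21134 genes listed. All 77 are described in the table as mitochondrial ribosomal proteins, and 40 carry a gene ontology term for the organellar ribosome. By their known place, 26 encode proteins of the small subunit and 50 proteins of the large subunit, 2 of the latter under MRPS symbols (MRPS18A and MRPS30). The remaining gene, MRPS36, is now named KGD4, since its product belongs to the alpha-ketoglutarate dehydrogenase complex and not to the ribosome.

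The mitochondrial ribosome translates the few proteins that mitochondrial DNA encodes, all of them membrane subunits of the respiratory chain and of ATP synthase. Its RNAs come from mitochondrial DNA, whereas every one of its proteins is encoded in the nucleus, made in the cytosol and imported. Cardiomyocytes depend on respiration for contraction, and inherited defects of several of these proteins, MRPL3, MRPL44 and MRPS22 among them, can cause cardiomyopathy in infancy.

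RNA was sequenced from cardiomyocytes that the labels call human induced pluripotent stem cell-derived (hiPSC-CMs), with H9 given as the cell line, a name known for an embryonic stem cell line. The 3 groups had 2 libraries each: control cells with no treatment, cells kept in 100 mM alcohol for 24 h, and cells kept for 24 h in the same alcohol to which 1 μM losartan was added (co-treated). Losartan blocks the type 1 receptor of angiotensin II. All groups come from the single line H9, no group received losartan alone, and the labels do not say whether the replicates were separate differentiations or cultures, so p-values measure only the spread between these libraries.

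The libraries held 4898287 to 5051448 expected counts (reads assigned to genes, estimated where a read fits several). A floor of 3 counts corresponds to 0.594 to 0.612 CPM (counts relative to the library total), and such a floor covers counting error only. Cardiomyocyte markers (10 of 10 listed, TNNT2 and MYH6 among them) took 4.77 to 5.70% of the counts. Markers of fibroblasts took 0.228 to 0.285%, those of dividing cells 0.0245 to 0.0611%, and those of endothelium, pluripotent cells and endoderm 0.00287 to 0.00792% each. Alcohol replicate 2 stood apart from the other libraries, with 0.298% of its counts in 10 genes of hypoxia and glycolysis against 0.545 to 0.773%, and 0.0985% in 4 smooth muscle markers against 0.137 to 0.259%. In bulk samples, fewer cells of a type and less RNA per cell cannot be told apart.

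The stretches upstream of 5 members are printed here, since these genes had the smallest or nearly the smallest p-values among members in a comparison, and since they show windows with and without the motifs counted next. In alcohol against control, MRPL52 and MRPS23 came next by p after MRPS28, for which no window was matched. MRPS34 and MRPL54 were taken from co-treated against alcohol, and MRPL12 from co-treated against control. Each is the RefSeq sequence (GRCh38.p14) of 160 bases on the strand of the gene, from 150 bases before the gene's start to 10 after it. Capitals mark matches to the motifs searched. They lie at chr14:22829737-22829896 (plus strand) for MRPL52, chr17:57850035-57850194 (minus strand) for MRPS23, chr16:1773125-1773284 (minus strand) for MRPS34, chr19:3762532-3762691 (plus strand) for MRPL54 and chr17:81703217-81703376 (plus strand) for MRPL12.
MRPL52: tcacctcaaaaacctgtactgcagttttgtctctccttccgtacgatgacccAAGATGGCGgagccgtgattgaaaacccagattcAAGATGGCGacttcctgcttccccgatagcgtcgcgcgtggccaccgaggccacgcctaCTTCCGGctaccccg
MRPS23: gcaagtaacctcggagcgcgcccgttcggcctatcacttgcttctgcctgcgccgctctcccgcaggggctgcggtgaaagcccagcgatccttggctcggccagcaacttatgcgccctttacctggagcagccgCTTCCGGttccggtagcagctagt
MRPS34: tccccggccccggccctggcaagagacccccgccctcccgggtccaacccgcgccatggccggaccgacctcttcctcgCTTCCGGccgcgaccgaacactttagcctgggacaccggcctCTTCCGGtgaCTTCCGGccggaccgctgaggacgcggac
MRPL54: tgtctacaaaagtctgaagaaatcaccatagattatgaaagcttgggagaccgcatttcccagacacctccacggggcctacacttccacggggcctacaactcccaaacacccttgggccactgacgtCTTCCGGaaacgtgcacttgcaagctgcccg
MRPL12: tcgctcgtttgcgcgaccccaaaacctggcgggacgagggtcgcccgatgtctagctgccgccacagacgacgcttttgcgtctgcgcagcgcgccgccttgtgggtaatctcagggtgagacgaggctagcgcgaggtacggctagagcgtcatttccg

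Motifs of 4 factors with known roles at nuclear genes of mitochondria or ribosomes were searched, on both strands, in RefSeq windows from 250 bases before to 50 after the start. A window was matched for 69 of the 77 members. The ETS core CCGGAAG, the kind of site that GABPA binds, was present in 28 of the 69 (40.6%), against 10.7% of all 27305 windows and 18.2% of the 11766 windows of genes tested here. The YY1 motif AAGATGGCG was present in 13 (18.8%), against 1.85% of all windows and 3.71% of those of genes tested. Both shares were above those of the genes tested. The NRF1 motif (GCGCA followed by its reverse complement) was found in 1 member (1.45%, against 1.36% of all windows and 2.24% of those of genes tested) and the E-box CACGTG, a site of MYC, in 7 (10.1%, against 7.43% and 9.80%). Any of the 4 motifs was present in 42 of 69 members (60.9%), in 19.1% of all windows and in 29.9% of those of genes tested. Among the printed members, MRPL52 carried YY1 motifs and an ETS core, MRPS34 carried 3 ETS cores, MRPS23 and MRPL54 carried 1 each, and the window of MRPL12 held none of these letters. Only exact matches to these letters were searched, so any other form of a site, that of NRF1 included, was not counted. The letters are a description of the windows, and binding was not measured.

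Every member was expressed in every library, and all 77 passed the filter on low counts that 14926 genes passed. A member had between 45 and 585 counts in a library, with a median of 177. Mean FPKM (fragments scaled to transcript length and library size) ran from 5.76 for MRPL22 to 94.5 for MRPL51, a 16.4-fold range. The quartiles of the members were 19.8 and 38.8 FPKM, which differ 1.96-fold, around a median of 28.2 FPKM. Of the 77, 9 averaged at least 50 FPKM and 7 averaged below 15 FPKM. The transcripts were short, with a median length of 1206 bases against 3012 for all genes tested.

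The highest levels belonged to MRPL51 (94.5 ± 4.67 FPKM, SD over 6 libraries), MRPS6 (83.9 ± 5.11), MRPL33 (79.7 ± 8.90), MRPL20 (76.1 ± 4.90) and MRPL41 (69.6 ± 13.8). MRPS6, MRPL33 and MRPL20 have counterparts in bacterial ribosomes, while MRPL51 and MRPL41 are found only in mitochondria. The 5 lowest were all of the large subunit: MRPL48 (13.5 ± 1.46), MRPL11 (13.0 ± 1.97), MRPL1 (10.7 ± 2.07), MRPL19 (10.3 ± 1.05) and MRPL22 (5.76 ± 0.366). The order was gradual. Of the 76 pairs of neighbours in it, 75 had overlapping ranges over the 6 libraries, and only MRPL22 lay apart, with its 5.23 to 6.15 FPKM below the 8.80 to 11.7 FPKM of MRPL19.

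**Figure D1:**
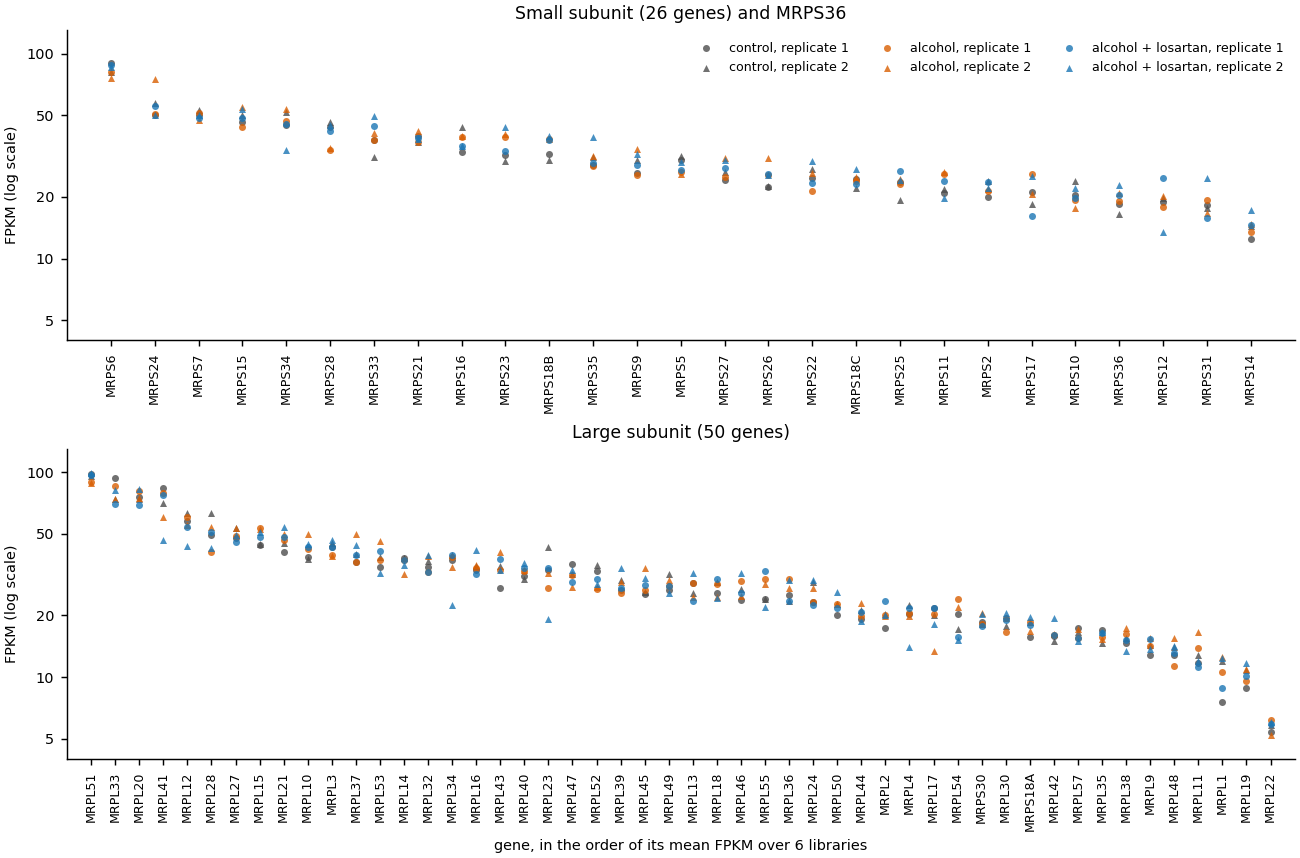
FPKM on a log scale of the 77 genes in each of 6 libraries, by subunit and in the order of mean FPKM, with circles for replicate 1 and triangles for replicate 2 of control (grey), alcohol (orange) and alcohol with losartan (blue). Levels fall gradually from MRPL51 (94.5 FPKM on average) to MRPL22 (5.76 FPKM), and the groups lie over each other for most genes.

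The subunits stood at like levels. Median mean FPKM was 29 over the 26 genes of the small subunit and 27.7 over the 50 of the large subunit. Within the small subunit, the 16 genes with a bacterial counterpart had a median of 29 FPKM and the 10 found only in mitochondria one of 29.3 FPKM. In the large subunit, the medians were 29.3 FPKM for 30 genes and 27.7 FPKM for 20 genes. For scale, all genes tested had a median of 8.20 FPKM, the 86 listed proteins of the cytosolic ribosome 605 FPKM, and the 82 nuclear subunits of oxidative phosphorylation 88.1 FPKM. The 6 listed mitochondrial ribosomal proteins under other symbols, such as DAP3 and PTCD3, had a median of 32.4 FPKM, near that of the members.

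Taken as 1 pool, the members took nearly the same share of the RNA in all 3 groups. Their share of all counts was 0.307 and 0.320% in the control libraries, 0.312 and 0.328% in the alcohol libraries, and 0.318 and 0.327% in the co-treated libraries. These ranges overlapped in all 3 comparisons. The difference was 0.00682 percentage points for alcohol against control (two-sided exact permutation p = 0.667), 0.00191 for co-treated against alcohol (exact permutation p = 1.0) and 0.00873 for co-treated against control (exact permutation p = 0.667). With 2 libraries against 2, this test cannot give a p below 0.333. The ratio of mean FPKM per gene, small over large subunit, was 1.02 and 1.02 in control, 1.02 and 1.08 in alcohol, and 1.05 and 1.11 in co-treated libraries.

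Members varied less between libraries than all genes tested did. The SD of log2 CPM over the 6 libraries had a median of 0.143 for the members and 0.213 for all genes tested. The full range over the libraries was narrowest, at 0.12, for MRPS21 and widest, at 1.19, for MRPL23. Members also had more counts, with a mean log2 CPM of 5.17 to 5.23 in a library against 4.58 to 4.62 for all genes tested. The steadiness was not particular to them. In alcohol against control, the median standard error of the log2 fold change was 0.16 for the members. It was 0.13 for nuclear subunits of oxidative phosphorylation and 0.12 for cytosolic ribosomal proteins.

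Whether alcohol changes the nuclear genes of the mitochondrial ribosome is the question of the first comparison. No member passed edgeR's quasi-likelihood test in alcohol against control at an adjusted p under 0.05, where 10 of 14926 genes did (0.067%). At an unadjusted p under 0.05 there were 2 of 77 members (2.60%), against 11.0% of all genes tested. DESeq2 called 0 members (0 at an unadjusted p under 0.05, against 5.96% of all genes) and limma on log2(FPKM + 1) called 0 (6, or 7.79%, at an unadjusted p under 0.05, against 10.4% of all genes). The median log2 fold change was −0.0036 over the members and −0.0033 over all genes, and 38 members were above 0 and 39 below. Values ran from −0.44 to 0.33, with quartiles at −0.097 and 0.13 for the members and at −0.18 and 0.18 for all genes. The 95% interval lay inside a 2-fold change for all 77 members (74.8% of all genes) and inside a 1.5-fold change for 57 (45.2% of all genes). On the scale of log2 CPM, the libraries of the groups did not overlap for 16 members higher in alcohol (22% of all genes) and 13 lower (21.8%), which as shares of 77 are not above those of all genes.

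MRPS28, a small subunit protein with a bacterial counterpart, had the smallest p. It stood at 43.9 and 46.3 FPKM in control, 34.0 and 34.4 in alcohol, and 42.1 and 44.7 in co-treated libraries. Both alcohol libraries were below all 4 others, while control and co-treated libraries overlapped. The log2 fold change was −0.44 ± 0.16 (SE) for alcohol against control (edgeR adjusted p = 0.326) and 0.34 ± 0.16 for co-treated against alcohol (edgeR adjusted p = 0.899). Both comparisons share the alcohol libraries. Over the alternatives tried, the first value stayed between −0.46 and −0.39, and it was −0.41 without alcohol replicate 2.

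MRPL52, found only in mitochondria and part of the large subunit, came next (chr14:22829887-22835037). Its levels were 33.0 and 35.1 FPKM in control, 26.9 and 27.5 in alcohol, and 30.1 and 28.4 in co-treated libraries. The control libraries were above the 4 libraries given alcohol, and the co-treated libraries lay between the other groups. The log2 fold change was −0.37 ± 0.15 in alcohol against control (edgeR adjusted p = 0.388) and −0.27 ± 0.15 in co-treated against control (edgeR adjusted p = 0.480).

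The p-values were larger for the other members named. MRPS23, a protein of the mitochondrial small subunit with no bacterial counterpart (chr17:57834781-57850044), stood at 31.86 and 29.95 FPKM in control, 39.3 and 40.7 in alcohol, and 33.6 and 43.7 in co-treated libraries. Both alcohol libraries were above both control libraries, with a log2 fold change of 0.33 ± 0.15 (edgeR adjusted p = 0.453). MRPS18B is listed here with the small subunit proteins found only in mitochondria. It was at 32.5 and 30.2 FPKM in control, 38.3 and 38.3 in alcohol, and 37.7 and 39.6 in co-treated libraries. All 4 libraries given alcohol were thus above control, and the log2 fold change was 0.25 in either comparison with control. Without alcohol replicate 2, MRPS23 was at 0.35 and MRPL52 at −0.34. MRPS26 was at 22.2 and 22.7 FPKM in control and at 25.6 and 30.9 in alcohol, a log2 fold change of 0.29. MRPL10, a protein of the stalk base where translation factors bind, had 38.6 and 37.9 FPKM in control and 42.3 and 49.7 in alcohol (0.23), and MRPL15 had 44.1 and 44.6 against 53.4 and 52.5 (0.22). In these 5 members, alcohol libraries were above control without overlap.

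In the other direction, MRPS5 was at 30.4 and 31.8 FPKM in control and 26.4 and 25.9 in alcohol, and MRPS10 at 20.4 and 23.9 against 19.3 and 17.7. Both have bacterial counterparts in the small subunit, and both had a log2 fold change of −0.29 with no overlap between the groups. MRPL28 overlapped, with 49.4 and 62.9 FPKM in control and 40.9 and 54.1 in alcohol, a log2 fold change of −0.28 that was −0.10 without control replicate 2 and −0.45 without alcohol replicate 2. Of the disease genes named above, MRPL3 was at 43.2 and 44.9 FPKM in control, 39.5 and 38.8 in alcohol, and 43.2 and 46.6 in co-treated libraries. Its alcohol libraries were the lowest 2 of 6, with a log2 fold change of −0.21 against control (edgeR adjusted p = 0.585). MRPL44, which has a fold like that of ribonuclease III, and MRPS22 had log2 fold changes of 0.046 and −0.17, and neither passed the test. MRPS14 and MRPS16, both with a bacterial counterpart, had log2 fold changes of 0.019 and −0.0085 in alcohol against control.

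**Figure D2:**
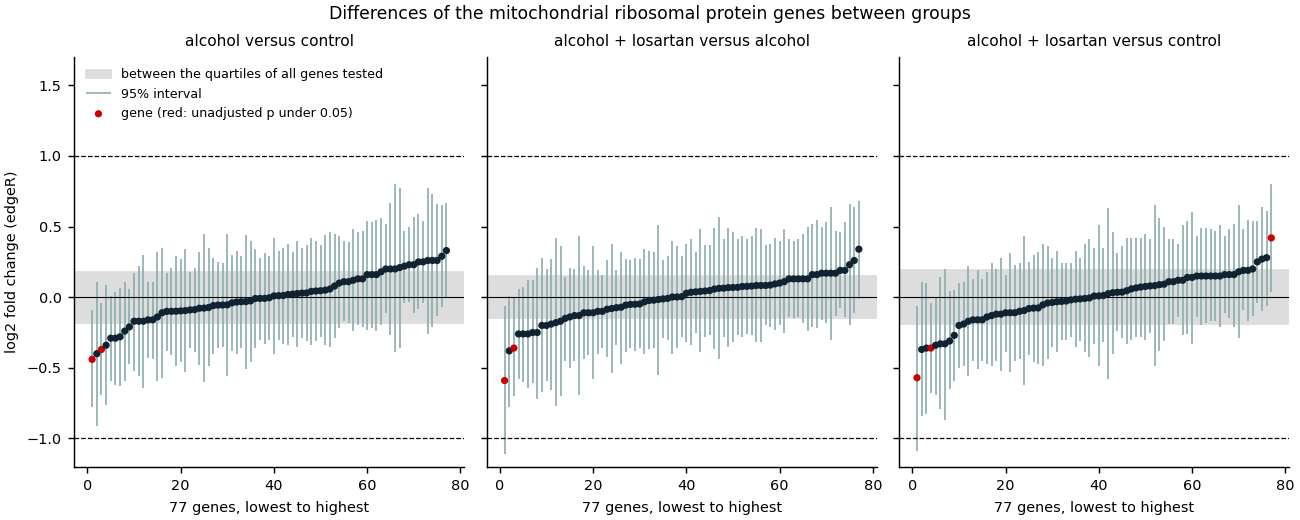
Log2 fold change of the 77 genes with 95% intervals in 3 comparisons, each in its own order from lowest to highest, with the span between the quartiles of all genes tested in grey and 2-fold changes as dashed lines. No gene passed the adjusted threshold, and the genes with an unadjusted p under 0.05 (red) number 2, 2 and 3.

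The second comparison asked what losartan added to alcohol. No member passed the test in co-treated against alcohol (edgeR, adjusted p under 0.05), and 2 of the 14926 genes did (0.0134%). An unadjusted p under 0.05 was reached by 2 of 77 members and by 5.55% of all genes. DESeq2 called 0 members (0 at an unadjusted p under 0.05, against 2.35% of all genes) and limma on log2(FPKM + 1) called 0 (4, or 5.19%, at an unadjusted p under 0.05, against 5.40% of all genes). The median log2 fold change was 0.0038, with 41 members above 0 and 36 below, and values from −0.59 to 0.34. The interval was inside a 2-fold change for 76 of 77 members (77.3% of all genes), the exception being MRPL54, and inside a 1.5-fold change for 60 (49.1% of all genes). Groups did not overlap for 10 members higher in co-treated libraries (17.4% of all genes) and 12 lower (16.2%).

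MRPL54, a large subunit protein found only in mitochondria (chr19:3762682-3767565), had 20.4 and 17.2 FPKM in control, 24.0 and 22.1 in alcohol, and 15.6 and 15.2 in co-treated libraries. By FPKM the groups formed 3 steps without overlap, with alcohol highest and co-treated lowest. Its log2 fold change against alcohol was −0.59 ± 0.24 with a 95% interval of −1.11 to −0.062 (edgeR adjusted p = 0.882). MRPS34, a small subunit protein found only in mitochondria (chr16:1771895-1773134), had 45.0 and 52.0 FPKM in control, 47.1 and 53.7 in alcohol, and 45.3 and 33.8 in co-treated libraries. Only co-treated replicate 2 was clearly below the others. The log2 fold change was −0.36 ± 0.16 (edgeR adjusted p = 0.896), and it was −0.17 without co-treated replicate 2. MRPL11, next to the stalk base in the large subunit, had 13.9 and 16.6 FPKM in alcohol against 11.25 and 12.04 in co-treated libraries, near its 11.7 and 12.8 in control. Its log2 fold change against alcohol was −0.38 ± 0.18 (edgeR adjusted p = 0.899).

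MRPS11, MRPS33, MRPL35, MRPS35 and MRPL3 completed the members named here. MRPS11 was at 25.9 and 26.3 FPKM in alcohol and at 24.0 and 19.8 in co-treated libraries, a log2 fold change of −0.26 without overlap. MRPS33, MRPS35 and MRPL35 had log2 fold changes of 0.26, 0.19 and 0.17, and MRPL3 one of 0.19. With co-treated replicate 2 left out, that of MRPS35 was −0.047 and that of MRPS33 was 0.15. MRPS35 was at 0.40 when replicate 1 of that group was left out instead. The largest interval bound on the high side in this comparison was 0.68, for MRPS28, and no member's interval reached a 2-fold rise.

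The third comparison set co-treated cells against control. No member passed (edgeR, adjusted p under 0.05), against 54 of 14926 genes (0.362%), and 3 of 77 members had an unadjusted p under 0.05, against 12.6% of all genes. DESeq2 called 0 members (0 at an unadjusted p under 0.05, against 6.91% of all genes) and limma on log2(FPKM + 1) called 0 (5, or 6.49%, at an unadjusted p under 0.05, against 12.1% of all genes). The median log2 fold change was 0.0086, with 39 members above 0 and 38 below, and values from −0.57 to 0.42. The interval was inside a 2-fold change for 76 of 77 members (74.7% of all genes), the exception being MRPL23, and inside a 1.5-fold change for 60 (43.4% of all genes). Groups did not overlap for 10 members higher (21.6% of all genes) and 14 lower (21.7%).

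MRPL12, the counterpart of the bacterial stalk protein and known also to bind the mitochondrial RNA polymerase (chr17:81703367-81707517), had the smallest p. Its levels were 57.5 and 63.0 FPKM in control, 60.3 and 55.0 in alcohol, and 53.7 and 43.5 in co-treated libraries. Both co-treated libraries were the lowest of the 6, replicate 2 by the wider margin. The log2 fold change was −0.36 ± 0.15 (edgeR adjusted p = 0.328) and −0.23 without co-treated replicate 2. MRPL23, which sits at the exit of the peptide tunnel (chr11:1947332-2014944), had 33.2 and 43.3 FPKM in control, 27.3 and 32.3 in alcohol, and 34.0 and 19.3 in co-treated libraries. Its co-treated replicates were further apart than the group means, and replicate 1 was above replicate 1 of control, while on the scale of log2 CPM both were below control. The log2 fold change was −0.57 ± 0.24 with a 95% interval of −1.09 to −0.059 (edgeR adjusted p = 0.336), and −0.23 without co-treated replicate 2.

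MRPS33, a small subunit protein found only in mitochondria (chr7:141002610-141014952), had 37.8 and 31.2 FPKM in control, 38.1 and 41.0 in alcohol, and 44.2 and 49.6 in co-treated libraries. By FPKM the groups formed 3 steps without overlap, control lowest and co-treated highest, with the highest control library just below the lowest alcohol library. The log2 fold change of co-treated against control was 0.42 ± 0.18 (edgeR adjusted p = 0.340), with 0.26 without control replicate 2 and 0.59 without control replicate 1. In co-treated against alcohol it was 0.26. MRPS36, the gene outside the ribosome, was at 18.4 and 16.5 FPKM in control, 19.1 and 20.8 in alcohol, and 20.5 and 22.9 in co-treated libraries. Its co-treated libraries were above control without overlap, with a log2 fold change of 0.27 (edgeR adjusted p = 0.565). MRPS34 and MRPL28 had log2 fold changes of −0.34 and −0.31, and MRPS25 one of 0.19.

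**Figure D3:**
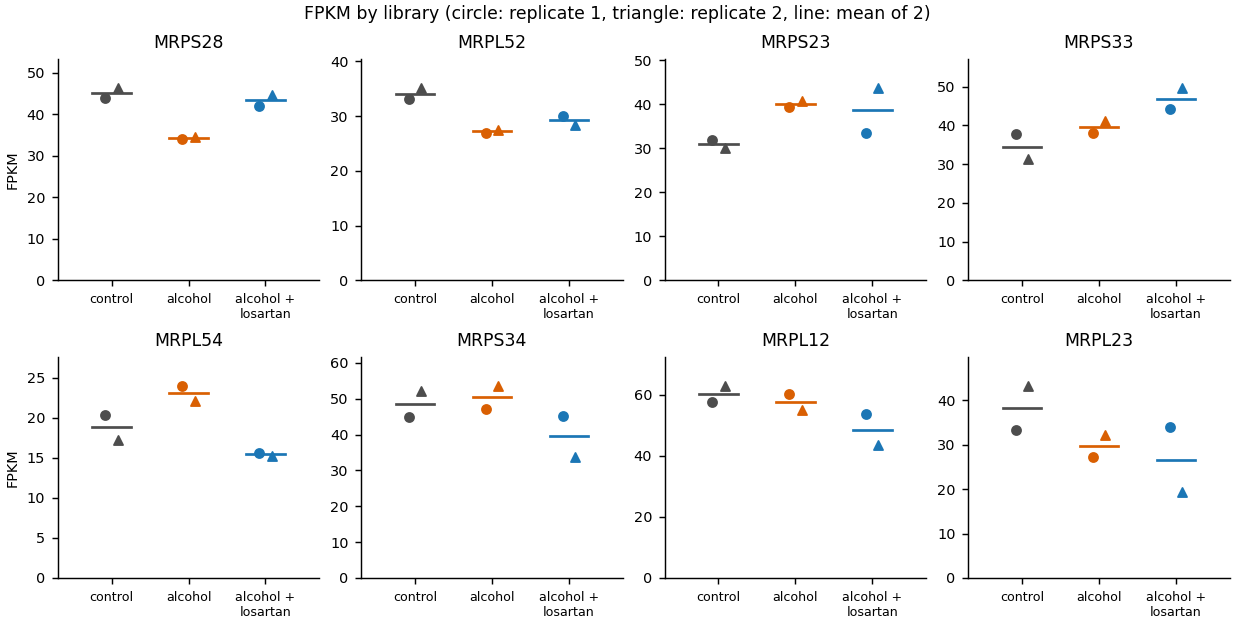
FPKM from 0 in each library for 8 genes with small unadjusted p-values (circle: replicate 1, triangle: replicate 2, line: mean of 2). MRPS28 is low in both alcohol libraries (34.0 and 34.4 FPKM), whereas MRPS34, MRPL12 and MRPL23 are low mainly in replicate 2 of alcohol with losartan (33.8, 43.5 and 19.3 FPKM).

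By subunit and origin, the members found only in mitochondria and part of the small subunit had the highest medians. Their summed FPKM was 288 and 288 in control, 305 and 334 in alcohol, and 309 and 340 in co-treated libraries. The control sums were below the other 4, a contrast that was not tested. Between any 2 groups, with 2 libraries each, an exact permutation test cannot give a p below 0.333. Of these 10 genes, 7 were above 0 in alcohol against control (median log2 fold change 0.11) and 8 in co-treated against control (median 0.15), and none passed the test in any comparison. Of all 14926 genes tested, 7376 and 7429 were above 0 in these comparisons, which share the control libraries. MRPS23, MRPS18B, MRPS26 and MRPS33 were among those above 0, and MRPS34 was among those below in the second. The medians of the small subunit genes with a bacterial counterpart were −0.0084 and −0.020 in the same comparisons. In the large subunit they were −0.045 and −0.026 for the 30 genes with a counterpart and 0.038 and 0.0090 for the other 20.

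Across the members, the difference between the co-treated replicates was correlated with the GC content of the transcripts. MRPL12, MRPL23 and MRPS34, low mainly in co-treated replicate 2, had 64.6, 66.3 and 64.7% GC. The median absolute log2 difference between replicates over the members was 0.12 in control, 0.15 in alcohol and 0.19 in the co-treated group, and it passed 0.5 in 1, 1 and 9 members. Across the 77 members, which share libraries, the difference of co-treated replicate 2 from replicate 1 had a Pearson r of −0.666 and a Spearman rho of −0.651 with the GC content of the transcripts. The same r was 0.155 in control and 0.0179 in alcohol, and −0.366 for the co-treated replicates over 14365 genes tested. All 20 members lowest in GC content were higher in replicate 2 (median log2 difference 0.24), and 16 of the 20 highest in GC content were lower (median −0.17). The members' log2 fold changes followed GC content too where the co-treated group was compared. Their Pearson r was −0.56 against alcohol (−0.22 over all genes) and −0.49 against control (−0.146). In alcohol against control it was 0.0122 (0.0509 over all genes).

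MRPL41, the member richest in G and C (71.9%), had the lowest value of the 6 libraries in co-treated replicate 2. Its levels were 83.4 and 70.5 FPKM in control, 79.5 and 60.6 in alcohol, and 76.9 and 46.7 in co-treated libraries. MRPS12, the counterpart of a protein at the bacterial decoding centre, had 24.6 and 13.5 FPKM in the co-treated replicates, the largest replicate difference of any member (0.84 on the log2 scale). MRPL34 and MRPL4, picked out after their values were seen, had 39.3 and 22.5 FPKM and 21.81 and 14.04 FPKM there. All 4 were low in co-treated replicate 2 alone or most in it.

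A correction for GC content in each library was chosen after seeing the data. Fitted without regard to group, it also takes out GC-linked differences between groups, whatever their source. Under it, the log2 fold change of MRPL12 in co-treated against control was −0.19, that of MRPL23 −0.39 and that of MRPS34 −0.18, with no adjusted p under 0.05 in edgeR. In co-treated against alcohol, MRPS34 was at −0.16, MRPL54 at −0.46 and MRPL41 at 0.13, the last from −0.20 without correction. Values of alcohol against control moved little, with MRPS28 at −0.42, MRPL52 at −0.37 and MRPS23 at 0.34. MRPS33 was at 0.37 in co-treated against control. What set the co-treated replicates apart was not tested.

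**Figure D4:**
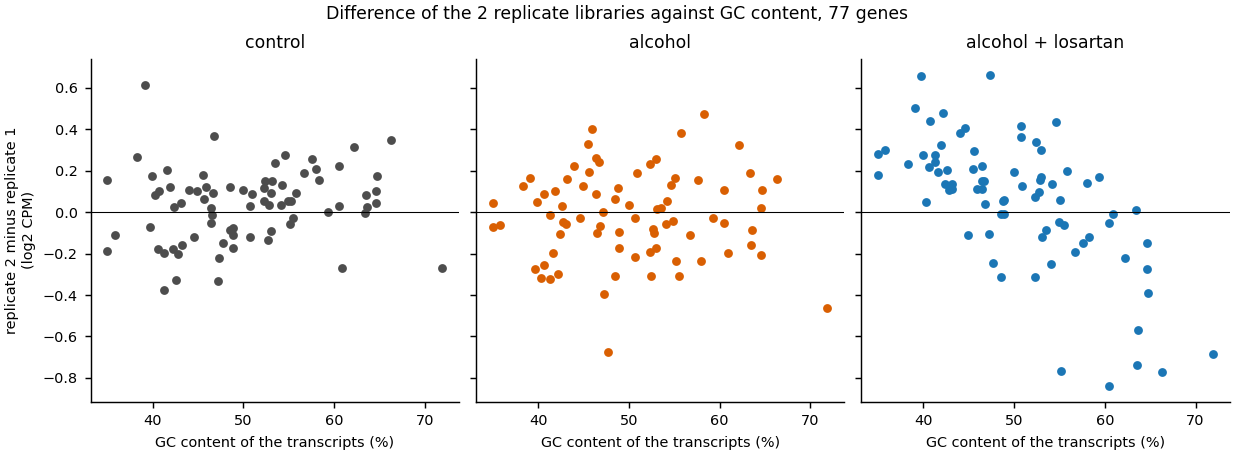
Difference of replicate 2 from replicate 1 (log2 CPM) against the GC content of the transcripts (percent) for the 77 genes in each group. The points fall with GC content in alcohol with losartan (r = −0.666) but not in control (r = 0.155) or alcohol (r = 0.0179).

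Genes that work with the mitochondrial ribosome passed the test in no comparison either. This held for the 6 listed ribosomal proteins under other symbols, 26 assembly factors, 16 translation factors, 12 genes of mitochondrial transcription and RNA processing, and 8 tested regulators of nuclear genes for mitochondria (edgeR, adjusted p under 0.05). In alcohol against control, 1, 1, 0, 1 and 0 of them had an unadjusted p under 0.05, against 11.0% of all genes. The counts were 0, 0, 0, 0 and 1 in co-treated against alcohol (5.55% of all genes) and 1, 3, 0, 1 and 2 in co-treated against control (12.6% of all genes). The genes named from these lists were picked out after their values were seen. GADD45GIP1, a large subunit protein, was at 46.3 and 55.5 FPKM in control, 39.5 and 24.8 in alcohol, and 42.9 and 32.2 in co-treated libraries. NOA1, a GTPase of ribosome assembly, was at 10.5 and 14.2 FPKM in control, 18.7 and 21.5 in alcohol, and 18.2 and 15.2 in co-treated libraries. Their log2 fold changes in alcohol were −0.69 (edgeR adjusted p = 0.262) and 0.67 (edgeR adjusted p = 0.169), both larger than that of any member. HSD17B10, a subunit of mitochondrial RNase P, was at −0.41 (edgeR adjusted p = 0.292).

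Of the regulators, PPARGC1A, a coactivator of mitochondrial biogenesis, had 13.68 and 11.98 FPKM in control, 15.8 and 15.4 in alcohol, and 15.5 and 14.2 in co-treated libraries. Both groups given alcohol were above control, with a log2 fold change of 0.24 in alcohol (edgeR adjusted p = 0.510). ESRRA, its partner receptor, had 20.5 and 19.7 FPKM in control, 19.6 and 21.2 in alcohol, and 16.8 and 13.2 in co-treated libraries. Co-treated libraries were the lowest, with a log2 fold change of −0.47 against control (edgeR adjusted p = 0.224). Of the 8 regulators tested, only PPARGC1A was above 0 in alcohol against control, and 7 were below (median −0.055). In either comparison of co-treated libraries, 2 were above 0 and 6 below. YY1 and GABPA, whose motifs were found upstream of many members, had log2 fold changes between −0.13 and −0.032 in the 3 comparisons. MYC, at 0.09 to 0.67 FPKM, was too low to be tested.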

How the data were processed

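Whether the libraries were stranded is not given in the sources used here. Reads were processed by the authors, whose submitted processing notes name HISAT2 2.0.4, Bowtie2 2.2.5, RSEM 1.2.12 and the build hg38. The authors deposited 1 table for every library, with the expected count of each gene, its FPKM and its transcript length in bases. A joint table repeats the FPKM beside gene symbols. Genes absent from the table of a library were set to 0, and expected counts (33.9% of those above 0 not whole) were rounded. Groups follow the treatment label.

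The main test was edgeR 4.0.16 (R 4.3.3), quasi-likelihood, two-sided, TMM normalization, filterByExpr, 6 libraries in 1 fit, with Benjamini-Hochberg adjustment over 14926 genes at 0.05. Alternatives were DESeq2 1.42.0, limma 3.58.1 on log2(FPKM + 1) and log2(FPKM + 0.1), other filters and scalings, a replicate block, fits of 2 groups, each library left out, and a loess on GC content (span 0.3, 96.2% of genes tested). GC content was the mean over GENCODE transcripts matched to the listed RefSeq transcripts of a gene. Log2 CPM used a prior count of 2. Scripts were tested on simulated data.

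Members named are the 5 with the smallest p in each direction of each comparison, the 5 highest and 5 lowest by mean FPKM, and 10 set by role; others are marked as picked later or exemplify a range. The promoters were set to follow the smallest p in alcohol against control. MRPS28 came first but no window was matched for it, so those of MRPL52 and MRPS23, next by p, were printed. The promoters of MRPS34, MRPL54 and MRPL12 were picked after their values were seen. The members, lists and motifs were chosen with earlier results of these data known.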

Additional observations from a re-analysis of the deposited data

How the results depend on the processing

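No member was called in any of the 3 comparisons under any of the 15 alternatives, and none of 1620 recomputed values of 36 named members reached an adjusted p under 0.05. Between 0 and 10 members had an unadjusted p under 0.05, 10 (13.0%) only without co-treated replicate 1, in co-treated against alcohol (8.17% of all genes) and against control (14.1%). Of 35 named values of at least 0.2 in size after rounding, the sign turned 4 times. It turned for MRPL1 in alcohol against control (−0.058 without control replicate 1). The other turns were all of MRPL41 in co-treated against alcohol, whose value was −0.197 before rounding. It was 0.044 without alcohol replicate 1, 0.11 without co-treated replicate 2 and 0.13 with GC correction. Leaving out 1 library moved 22 of the 35 by over 1.5 times or turned the sign. Among smaller values, MRPS35 in co-treated against alcohol also turned (0.19, and −0.047 without co-treated replicate 2).

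The members' median log2 fold change stayed between −0.045 and 0.085 throughout. In alcohol against control it was −0.0036, 0.043 and 0.044 by limma with a pseudocount of 1 and 0.1 (all genes 0.030 and 0.035), and −0.016 to 0.032 with a library left out. Leaving out a library gave −0.045 to 0.085 in co-treated against alcohol and −0.042 to 0.069 in co-treated against control, with both ends of each set by the co-treated replicates.

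Counts over all genes moved more. In alcohol against control 10 genes were called, and 72 by DESeq2, 2 without a filter, 26 with at least 10 counts in every library, 48 with the replicate block, 3 with the 2 groups only, 0 and 2 by limma with a pseudocount of 1 and 0.1, and 1 to 220 with a library left out (1 without alcohol replicate 2, 220 without alcohol replicate 1). In co-treated against alcohol 2 were called, and 5 by DESeq2, 1 without a filter, 0 with at least 10 counts, 5 with the block, 4 with the 2 groups only, 1 by limma with a pseudocount of 1, 1 with GC correction, and 1 to 24 with a library left out. In co-treated against control 54 were called, and 128, 15, 136 (block) and 158 under DESeq2, no filter, the block and the 2 groups only, 2 and 3 by limma, 86 with GC correction, and 2 to 184 with a library left out. The cause was not tested. A left-out library leaves 1 sample in its group, assumed to vary like the others. The labels give no pairing of the replicates. Over the genes tested, deviations of replicate 1 from its group mean (log2 CPM) correlated at 0.114, −0.0162 and 0.0412 between groups. No member was called with the block.

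Depth limits single members: at a median of 177 counts and 2 libraries a group, the 95% interval of a member typically spanned −0.35 to 0.35 in alcohol against control. Reads shared with neighbours are a further limit. Of the members, 19 overlap an exon of another listed gene by at least 50 bases, 3 of them on the same strand. The other 16 overlap on the opposite strand, a limit since strandedness is not given. Among the 19 are the highest members, MRPL51 (382 bases with NCAPD2, opposite strand) and MRPS6 (176 bases with SLC5A3, same strand). MRPS12 (349 bases with SARS2, opposite strand) and MRPL28 (223 bases with TMEM8A, same strand) are others.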

Other observations

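MRPL23-AS1, antisense to MRPL23 with 85 bases of exon in common, had 14 and 5 counts in control, 33 and 22 in alcohol, and 32 and 20 in co-treated libraries, and the levels of MRPL23 did not follow this order. URGCP-MRPS24, a read-through gene that holds 425 bases of MRPS24 exon on the same strand, had at most 6.5 estimated counts in a library. MRPS24 itself was at 50.1 and 57.2 FPKM in control, 50.8 and 74.8 in alcohol, and 55.4 and 49.95 in co-treated libraries, with alcohol replicate 2 the highest. Among 3 pseudogenes of members, MRPS31P5 had 59.4 to 97.8 estimated counts, MRPL45P2 had 4.00 to 13.1, and MRPL42P5 had 1 at most. MRPS31 itself was at 18.2 and 17.6 FPKM in control, 19.2 and 16.7 in alcohol, and 15.8 and 24.7 in co-treated libraries, with both ends of its range in the co-treated group.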
